A study of Mus musculus with 48 samples.

Results

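The 9 genes Dusp1, Dusp4, Dusp5, Dusp6, Dusp7, Dusp8, Dusp10, Dusp14 and Dusp16 encode dual-specificity phosphatases that act on mitogen-activated protein (MAP) kinases. They were chosen by name, with earlier results of these data known, and they are 9 of the 47480 gene symbols in the count tables. All 9 were counted in each of the 48 libraries, with 658 counts or more for the least abundant (Dusp5 in differentiated cells), and all 9 passed the filter on low counts in every comparison.

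A MAP kinase is switched on when an upstream kinase phosphorylates a threonine and a tyrosine in its activation loop, and a dual-specificity phosphatase switches it off by removing both phosphates. The typical MAP kinase phosphatases carry a docking domain that gives each a preference among the ERK, JNK and p38 kinases, and several of their genes are themselves transcribed in response to MAP kinase signalling, which makes them a textbook case of negative feedback. Dusp1, Dusp4 and Dusp5 encode nuclear enzymes, of which the Dusp5 product is selective for ERK. Dusp6 and Dusp7 encode cytoplasmic ERK phosphatases, and Dusp8, Dusp10 and Dusp16 encode enzymes that prefer JNK and p38. Dusp14 encodes a small, atypical member without the docking domain.

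C2C12, an established mouse myoblast line that fuses into multinucleated myotubes, was studied as undifferentiated myoblasts and as cells differentiated for 4 days. Cells on flexible collagen-coated plates were stretched cyclically and equibiaxially in a Flexcell device for 1, 3 or 6 h, or kept on the same kind of plate without stretching, so that each time had its own non-stretched cells. There were 12 groups of 4 libraries, and the groups carried no transgene or drug. Myoblasts came from an experiment coded B27 (replicates 7 and 8) and another coded B31 (replicates 9 and 10), and differentiated cells from experiments B25 (7 and 8) and B28 (9 and 10), except that the stretched differentiated group at 1 h held replicates 4, 7, 8 and 9, of which replicate 4 was the only library of experiment B17. One cell line in repeated wells is the model throughout, so that p-values measure the spread between these libraries and do not extend to muscle of different animals.

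The libraries held 48447318 to 68967899 counts in myoblasts and 53916927 to 77080730 in differentiated cells. The summed level of 9 markers of differentiated muscle was 5.98 to 13.8 CPM (counts scaled by library size) over the myoblast libraries and 7203 to 9000 CPM over the differentiated libraries, while that of 6 markers of undifferentiated, dividing myoblasts was 1464 to 1812 CPM and 251 to 632 CPM. Without stretching, 5 of these 6 were lower and 1 higher in differentiated cells by the adjusted p limit. Pax7 had a median of 27.1 CPM in myoblast and 32.1 CPM in differentiated libraries, unlike the sum. Of 7 markers of leukocytes, endothelium, epithelium and neurons, 1 or 2 passed the filter on low counts in a stretch comparison, and the neuronal tubulin gene Tubb3 (186 to 302 CPM in myoblasts, 40.2 to 86.6 CPM in differentiated cells) made up nearly all of their sum. Tubb3 rose in myoblasts at 6 h (log2 0.56 ± 0.049, adjusted p = 4.50e-05) and in differentiated cells at 3 h (0.53 ± 0.072, adjusted p = 8.24e-04) and 6 h (0.82 ± 0.064, adjusted p = 1.50e-04). Of the dividing-myoblast markers, 3 of 6 rose by the adjusted p limit after 3 h in differentiated cells and 1 did after 6 h, and in myoblasts 1 rose and 1 fell at 3 h and 1 rose and 3 fell at 6 h, none past the fold limit. Of the markers of differentiated muscle, Myog fell in myoblasts at 3 h (log2 -0.82 ± 0.234, adjusted p = 0.0167), and by the adjusted p limit alone 1 fell in myoblasts and 2 in differentiated cells at 6 h. Myog was low in all myoblast libraries (0.389 to 3.22 CPM). In myoblasts at 1 h the median log2 difference over the 6 tested markers was -0.63, with 0 called by edgeR and 2 by DESeq2. The part of these markers in the results was not tested. The highest sum of the dividing-myoblast markers among differentiated libraries, 632 CPM, belonged to stretched replicate 4 at 1 h, against 352 to 395 CPM in the other 3 libraries of its group. That library also stood apart for several phosphatase transcripts, so that the tests of most members at this time are given with and without it. Values of the gene lists include it.

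Sequences upstream of 3 of the genes are shown, because Dusp1 and Dusp5 were the members that passed both limits after stretching and Dusp8 shares a promoter element with Dusp1 but not its response at 1 h. The windows come from RefSeq on GRCm38.p6, which held 8 of the 9 genes (not Dusp4), and each is printed up to the last base before the start of the main GENCODE transcript, or for Dusp8 before the RefSeq start, which lies 12 bases upstream of it. Capitals mark every match, on either strand, of TGACGTCA (the cyclic AMP response element), TGACG (part of that element), TGANTCA (the AP-1 element), the CArG box (bound by serum response factor) or CACGTG (an E-box).
Dusp1, chr17:26508520-26508722, minus strand: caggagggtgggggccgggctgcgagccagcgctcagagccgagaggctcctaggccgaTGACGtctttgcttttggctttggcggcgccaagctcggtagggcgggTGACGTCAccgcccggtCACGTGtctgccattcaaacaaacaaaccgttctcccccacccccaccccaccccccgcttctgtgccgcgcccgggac
Dusp5, chr19:53528895-53529108, plus strand: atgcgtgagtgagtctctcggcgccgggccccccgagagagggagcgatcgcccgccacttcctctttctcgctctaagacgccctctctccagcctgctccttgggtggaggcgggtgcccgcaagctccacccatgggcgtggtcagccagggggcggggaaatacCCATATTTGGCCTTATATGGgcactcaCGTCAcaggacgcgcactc
Dusp8, chr7:142095285-142095534, minus strand: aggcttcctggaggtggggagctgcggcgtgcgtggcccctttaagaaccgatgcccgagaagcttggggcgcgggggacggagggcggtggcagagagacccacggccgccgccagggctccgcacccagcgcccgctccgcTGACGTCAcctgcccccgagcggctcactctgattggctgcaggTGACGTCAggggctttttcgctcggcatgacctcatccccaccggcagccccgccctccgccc

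The Dusp1 stretch holds 1 full TGACGTCA, beginning 96 bases before the start of the main GENCODE transcript, a further TGACG at 144 bases and CACGTG at 79 bases. The Dusp5 stretch holds 2 CArG boxes side by side, beginning 46 and 36 bases before the start, and a TGACG on the opposite strand. All 214 bases of the Dusp5 stretch also lie in exons of the antisense transcript AC137853.2 on the minus strand. The Dusp8 stretch holds 2 full TGACGTCA, at 119 and 75 bases before the start. Over all 32851 windows of the RefSeq table (300 bases each, the letters counted on both strands), TGACGTCA occurred in 1.79%, the CArG box in 1.63%, CACGTG in 7.15%, TGANTCA in 7.81% and TGACG, which TGACGTCA contains on both strands, in 20.8%. Of the other 5 windows, that of Dusp16 held a TGACG and those of Dusp6, Dusp7 and Dusp10 held none of the 5 elements. The window of Dusp14 lies wholly downstream of the start of its main GENCODE transcript and was not read as upstream sequence. The elements were chosen after the expression values were known, and a match describes letters only, not binding.

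Without stretching, Dusp4 had the highest level in myoblasts, and the order of the members was different in differentiated cells. Per kilobase of the main transcript, the non-stretched myoblasts carried most Dusp4 (80.9 ± 4.79 CPM per kilobase, SD, n = 12), followed by Dusp6 (34.6 ± 1.18), Dusp5 (30.4 ± 2.30), Dusp10 (26.1 ± 1.10) and Dusp1 (22.5 ± 1.09). Dusp14 (13.9 ± 0.827), Dusp16 (9.86 ± 0.269), Dusp7 (8.52 ± 0.383) and Dusp8 (4.31 ± 0.219) were lower. The ranges of the neighbours Dusp6 and Dusp5, and of Dusp10 and Dusp1, overlapped, and the other neighbours in that order did not overlap.

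In non-stretched differentiated cells the order per kilobase was led by Dusp1 (28.9 ± 1.44), Dusp10 (22.4 ± 1.52) and Dusp4 (19.7 ± 0.815 CPM per kilobase, SD, n = 12) and ended with Dusp5 (5.41 ± 0.583). Dusp14, Dusp6, Dusp8, Dusp16 and Dusp7 lay between 15.1 and 6.15 CPM per kilobase, and the neighbours Dusp10 and Dusp4, Dusp14 and Dusp6, Dusp8 and Dusp16, and Dusp7 and Dusp5 overlapped. With the merged length of all exons in place of the main transcript, an alternative added after the values were seen, Dusp1 (17.4 CPM per kilobase) came in differentiated cells behind Dusp10 (20.6) and Dusp4 (19.7), and Dusp16 came last, so these places in the order depend on the length assumed. Levels in myoblasts kept Dusp4 at the top (80.9) and Dusp8 at the bottom (4.25) with either length.

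**Figure D1:**
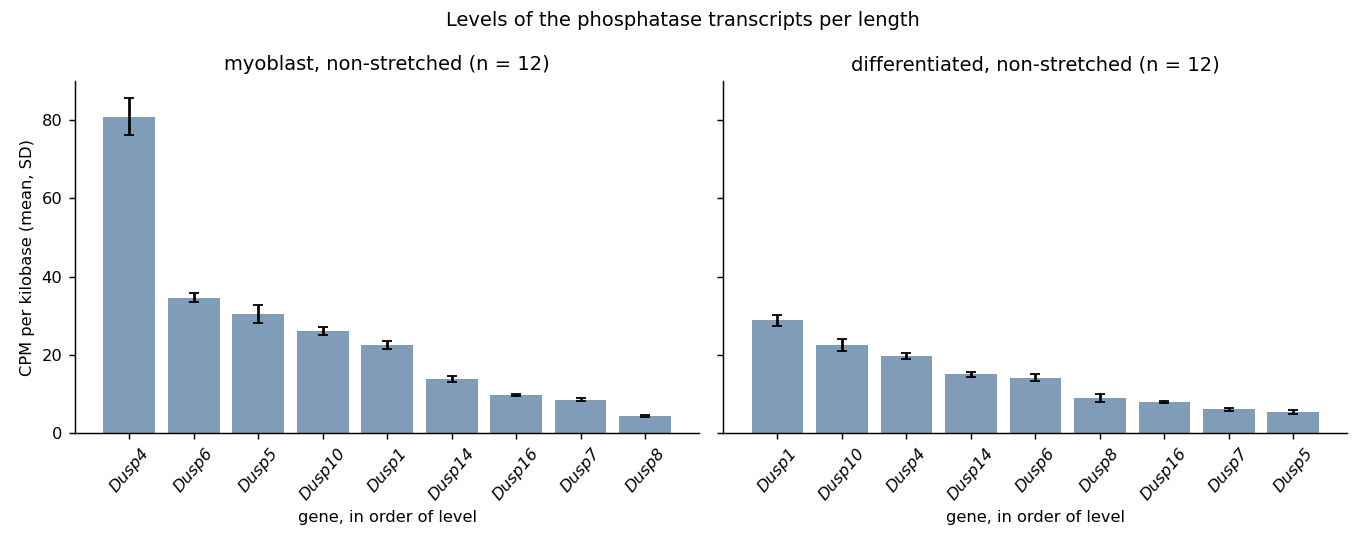
Mean CPM per kilobase of the main GENCODE transcript (vertical axis) of each phosphatase gene in the 12 non-stretched libraries of myoblasts (left) and of differentiated cells (right), with genes in order of level and bars of 1 SD. Dusp4 leads in myoblasts at 80.9 and Dusp1 in differentiated cells at 28.9, where Dusp5 is lowest at 5.41.

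Between the stages, non-stretched differentiated cells held less Dusp4, Dusp5 and Dusp6 and more Dusp8 than myoblasts. Dusp4 fell from 222 ± 13.1 to 54.0 ± 2.23 CPM, a log2 difference of -2.07 ± 0.028 (SE; edgeR adjusted p = 2.73e-29). The ERK-selective nuclear Dusp5 fell from 75.2 ± 5.68 to 13.4 ± 1.44 CPM (log2 -2.52 ± 0.050, adjusted p = 1.29e-25). Its cytoplasmic counterpart Dusp6 went from 96.8 ± 3.31 to 39.7 ± 2.34 CPM (log2 -1.32 ± 0.026, adjusted p = 1.27e-25). In the other direction Dusp8 rose from 20.7 ± 1.05 to 43.4 ± 4.69 CPM (log2 1.04 ± 0.047, adjusted p = 1.69e-17, n = 12 libraries of each stage throughout). The 12 libraries of each stage came from few experiments, and the model held no term for the experiment. These SE and p-values therefore measure the spread between libraries, not between independent experiments.

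The other 5 members moved less than the fold limit. Dusp1 was higher by 0.33 and Dusp14 by 0.09 on the log2 scale, and Dusp7, Dusp16 and Dusp10 differed by -0.50, -0.34 and -0.25, all with an adjusted p under the limit. The 4 members past both limits (adjusted p under 0.05 and an absolute log2 difference of at least 0.58, termed called in the following) stand beside 52.0% of all 16582 genes tested, so that a count of 4 of 9 is no more than the share of all genes. The libraries of the stages came from different experiments and were deposited in separate tables of raw counts, scaled together here. Culture medium (fetal bovine serum for myoblasts, horse serum for differentiation) and plating density also went with the stage. Stage, experiment, medium and density cannot be told apart in this comparison.

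With all libraries, stretching for 1 h raised Dusp1 1.97-fold in myoblasts and 1.94-fold in differentiated cells, where replicate 4 stood above its group. In myoblasts a further 4 phosphatase transcripts rose by smaller amounts. Dusp1, on chromosome 17 (26505590 to 26562128, minus strand; GRCm38), is the classical immediate early MAP kinase phosphatase of the nucleus. In non-stretched myoblasts at 1 h it stood at 48.8, 47.1, 43.6 and 44.9 CPM in replicates 7 to 10, and in stretched myoblasts at 91.0, 88.3, 93.4 and 91.2 CPM. The stretched libraries were all far above the others and close to one another. The log2 fold change was 0.98 ± 0.038 (SE; fold 1.97; edgeR adjusted p = 1.37e-07), and it was 0.91 within experiment B27 and 1.05 within B31. In RNA from whole cultures, more RNA per cell and more cells that express a gene cannot be told apart.

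Of the ERK phosphatases in myoblasts at 1 h, Dusp5 (chromosome 19, 53529109 to 53542431, plus strand) went from 84.5, 86.2, 73.7 and 79.2 CPM to 108, 106, 112 and 113 CPM. This was a log2 rise of 0.44 ± 0.047 (adjusted p = 3.11e-04), below the fold limit although no library of either group overlapped. Dusp6 (chromosome 10, 99263231 to 99267489, plus strand) went from 96.5, 93.0, 102 and 99.7 CPM to 125, 117, 127 and 136 CPM, a log2 rise of 0.36 ± 0.043 (adjusted p = 5.54e-04). Dusp4, the most abundant member here, rose by 0.26 ± 0.047 (adjusted p = 0.00725) from a mean of 219 to 263 CPM. Dusp7, the other cytoplasmic ERK phosphatase, did not follow Dusp6 (log2 -0.16 ± 0.049, adjusted p = 0.0932).

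Among the JNK and p38 phosphatases, Dusp10 rose by 0.14 ± 0.031 (adjusted p = 0.0234) in myoblasts at 1 h, from 76.2 to 83.9 CPM. Dusp8, with 2 TGACGTCA elements, stayed at 19.9 and 19.8 CPM (log2 -0.0048 ± 0.051, adjusted p = 0.977). Dusp16 and Dusp14 differed by 0.09 ± 0.029 and 0.12 ± 0.042 and did not pass (adjusted p = 0.112 and 0.147). In all, 1 of 9 members was called upward, where 0.254% of 14938 genes were, and 5 of 9 passed the adjusted p limit upward, where 1.67% of genes did. The stretched libraries lay above every non-stretched library for 7 members, against 5.58% of all genes, and the median log2 fold change was 0.14 over the members and 0.0024 over all genes.

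**Figure D2:**
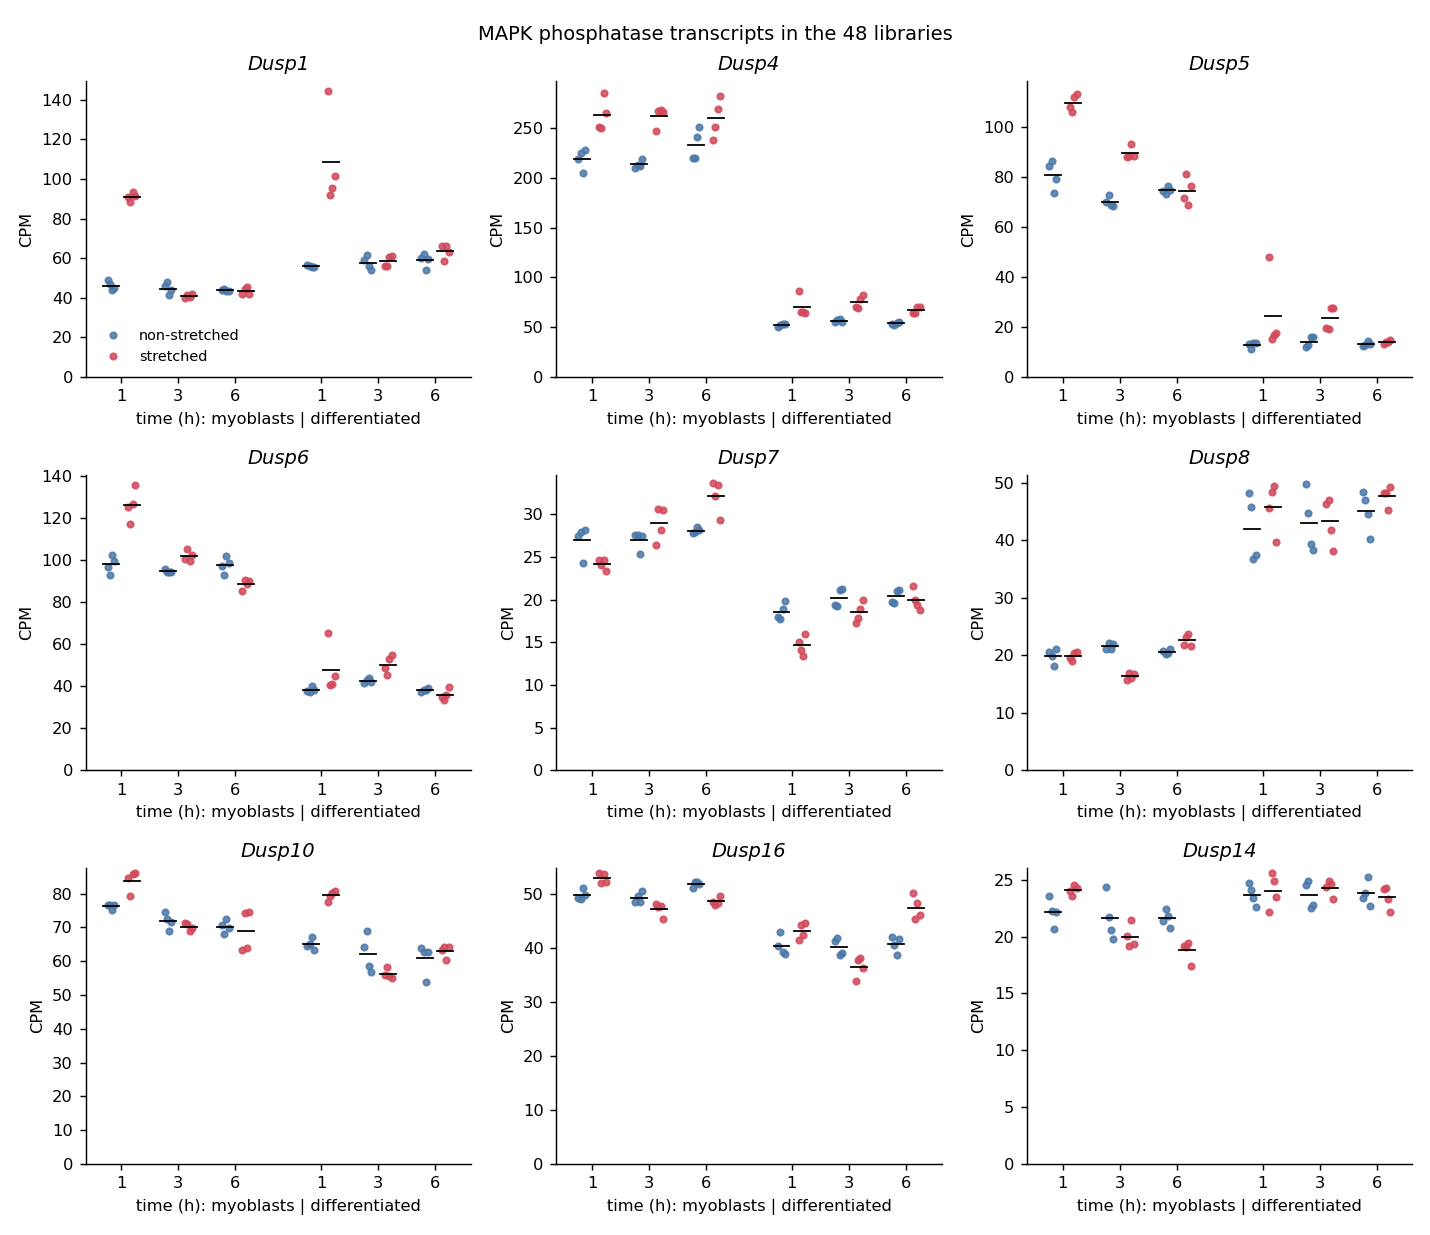
CPM (vertical axes, from 0, TMM-scaled over all 48 libraries) of the 9 phosphatase genes in each library by time in hours (horizontal axes), myoblasts on the left and differentiated cells on the right of each panel, with blue points for non-stretched and red points for stretched libraries and a black line at the mean of 4. The stretched libraries of Dusp1 stand apart at 1 h in both stages, and 1 stretched differentiated library at 1 h lies far above the rest for Dusp1 (144 CPM), Dusp4 (85.9 CPM), Dusp5 (47.8 CPM) and Dusp6 (65.2 CPM).

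In differentiated cells at 1 h, Dusp1 also rose, and the size of the rise depended on replicate 4. The non-stretched libraries were at 56.4, 55.9, 55.4 and 55.6 CPM and the stretched ones at 144 (replicate 4), 91.8, 95.6 and 102 CPM (replicates 7, 8 and 9). Every stretched library lay above every non-stretched one, but replicate 4 lay above its own group as well. The log2 fold change was 0.96 ± 0.125 (adjusted p = 0.0133), and without replicate 4 it was 0.79 ± 0.041 (adjusted p = 2.30e-05). Leaving out any 1 of the 4 non-stretched libraries instead kept the size, between 0.95 and 0.96, but took the adjusted p to 0.0521 to 0.0717. Within experiments B25 and B28 the rises were 0.74 and 0.87.

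Replicate 4 carried most of the apparent rise of Dusp5 in differentiated cells at 1 h. Its level was 47.8 CPM, against 15.3, 16.9 and 17.5 CPM in replicates 7, 8 and 9 and 13.0, 11.2, 13.7 and 13.6 CPM in the non-stretched libraries. The log2 fold change of 0.91 ± 0.333 did not pass (adjusted p = 0.391), and without replicate 4 it was 0.36 ± 0.080 (adjusted p = 0.0897). In a model that included the experiment, to which replicate 4 no longer contributes because it is alone in its own, the change was 0.39 ± 0.060 (adjusted p = 0.0110). The part of the dividing-myoblast markers, which were highest in replicate 4, in these values was not tested.

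Dusp4 and Dusp6 were also highest in replicate 4. Dusp4 was at 85.9 CPM in replicate 4 and at 64.6, 65.5 and 64.0 CPM in the other 3, against 49.6 to 53.2 CPM without stretching. Its log2 fold change was 0.43 ± 0.089 (adjusted p = 0.0753) with replicate 4 and 0.31 ± 0.036 (adjusted p = 0.00444) without it. Dusp6 was at 65.2 CPM in replicate 4 and 40.4, 41.0 and 45.0 CPM in the others, against 37.2 to 40.1 CPM. Its log2 change was 0.32 ± 0.135 (adjusted p = 0.502), or 0.14 ± 0.050 (adjusted p = 0.382) without that library.

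The JNK and p38 phosphatase Dusp10 did not share this split. It went from 64.5, 65.2, 67.0 and 63.2 CPM to 77.7 (replicate 4), 79.3, 80.2 and 80.8 CPM, a log2 rise of 0.29 ± 0.036 (adjusted p = 0.0118), and 0.30 ± 0.034 (adjusted p = 0.00389) without replicate 4. As for Dusp1, its adjusted p depended on the control libraries and reached 0.0717 when 1 of them was left out. Dusp7 was lower in all 4 stretched libraries (13.5 to 15.98 CPM against 17.7 to 19.8 CPM), a log2 difference of -0.35 ± 0.067 with an adjusted p of 0.0563 that missed the limit, and of 0.0533 without replicate 4. Dusp8, Dusp16 and Dusp14 differed by 0.13, 0.10 and 0.02 on the log2 scale and did not pass.

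In differentiated cells at 1 h, 1 of 9 members was called upward, against 0.0901% of 15538 genes, and 2 (Dusp1 and Dusp10) passed the adjusted p limit upward, against 0.193%. Without replicate 4, Dusp1 alone was called, where 56 of 15734 genes were called in either direction. In that fit 3 members passed the adjusted p limit upward (Dusp1, Dusp4 and Dusp10), and the share of all genes at that limit is not given. With replicate 4 included, the stretched libraries lay above all non-stretched ones for 5 members (Dusp1, Dusp4, Dusp5, Dusp6 and Dusp10), where 2.49% of genes did, and below them for Dusp7, where 3.90% did. The median log2 fold change, also with replicate 4, was 0.29 over the members and -0.00017 over all genes.

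**Figure D3:**
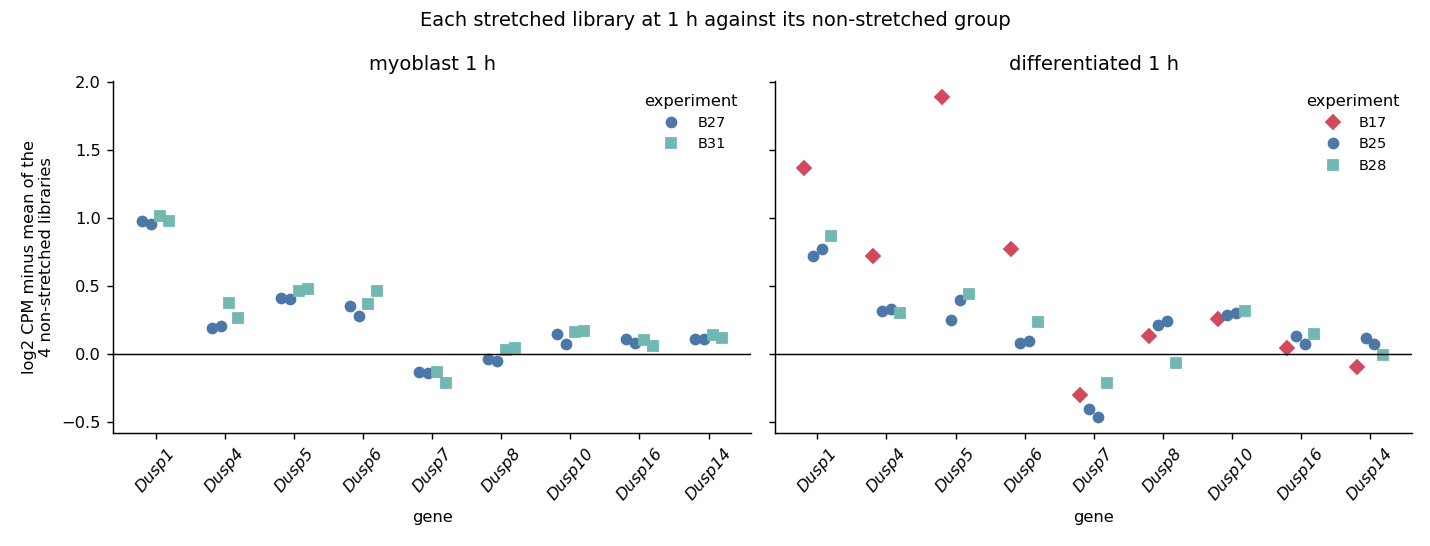
Log2 CPM of each stretched library at 1 h minus the mean of its 4 non-stretched libraries (vertical axis) for the 9 phosphatase genes (horizontal axis), in myoblasts on the left and differentiated cells on the right, with a symbol for each experiment. The single library of experiment B17 (red diamonds) rises by 1.37 for Dusp1 and 1.89 for Dusp5, where the other 3 libraries rise by 0.72 to 0.86 and 0.25 to 0.44, but it lies with them for Dusp10.

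At 3 h Dusp1 was no longer higher in either stage, and Dusp4, Dusp5 and Dusp6 were the members that stood higher in both. In myoblasts Dusp1 was at 45.7, 47.8, 41.1 and 43.7 CPM without and 39.8, 41.3, 40.4 and 41.9 CPM with stretching, a small fall (log2 -0.14 ± 0.039, adjusted p = 0.0151) in groups that overlapped. In differentiated cells it differed by 0.02 ± 0.046 (adjusted p = 0.804). The effect on Dusp1 at 3 h was lower than that at 1 h by 1.12 on the log2 scale in myoblasts (interaction -1.12 ± 0.054, adjusted p = 4.94e-13) and by 0.94 in differentiated cells (-0.94 ± 0.132, adjusted p = 1.55e-04, and -0.77, adjusted p = 7.77e-07, without replicate 4).

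Dusp5 was the only member called at 3 h, and this was in differentiated cells. It went from 12.04, 12.7, 15.97 and 15.9 CPM to 19.7, 19.1, 27.7 and 27.6 CPM in replicates 7 to 10. Both the non-stretched and the stretched libraries of experiment B28 were above those of B25. Each stretched library was above every non-stretched one, as for 12.6% of all genes. The log2 fold change was 0.73 ± 0.142 (fold 1.66; adjusted p = 0.00473), with 0.65 within B25 and 0.79 within B28, and a model that included the experiment gave 0.73 ± 0.041 (adjusted p = 5.57e-06). In a test against a log2 fold change of 0.58 itself rather than 0, it did not pass (adjusted p = 1).

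In myoblasts at 3 h Dusp5 rose by 0.34 ± 0.029 (adjusted p = 5.83e-06), from 70.0, 72.9, 68.8 and 68.2 CPM to 87.8, 88.2, 93.3 and 88.5 CPM. The difference between stages in this effect was 0.38 ± 0.146 and did not pass (adjusted p = 0.240), but it passed with the experiment as a covariate (0.38, adjusted p = 3.45e-04). An antisense transcript, AC137853.2, overlaps 547 bases of the main Dusp5 transcript. No counts are listed under that name. The libraries were stranded, but the strand setting of the counting is not given in the sources used here, so its reads may be included.

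Dusp4, a nuclear phosphatase on chromosome 8 (34807297 to 34819894, plus strand), was higher after stretching at each time in both stages, with a difference that passed the adjusted p limit in 5 of the 6 comparisons. At 3 h it went from a mean of 213 to 262 CPM in myoblasts (log2 0.29 ± 0.031, adjusted p = 2.67e-05) and from 56.3 to 75.0 CPM in differentiated cells (0.41 ± 0.053, adjusted p = 6.05e-04). At 6 h the differences were 0.18 ± 0.056 (adjusted p = 0.0351) and 0.32 ± 0.043 (adjusted p = 0.00124). The exception was differentiated cells at 1 h with all libraries, where without replicate 4 it passed. None of its effects reached the fold limit, and none of the tests of a difference between times or stages passed for it. Dusp6 rose at 3 h by 0.10 ± 0.024 in myoblasts (adjusted p = 0.00885) and by 0.24 ± 0.054 in differentiated cells (adjusted p = 0.00963).

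The largest fall among the members was that of Dusp8 in myoblasts at 3 h. It went from 21.1, 22.1, 21.2 and 21.9 CPM to 15.7, 16.9, 15.97 and 16.7 CPM, with no overlap, where 15.4% of all genes lay wholly lower. The log2 difference of -0.41 ± 0.039 (adjusted p = 1.02e-05) was -0.41 within each experiment and between -0.43 and -0.39 when any 1 library was left out. No such difference was seen at 1 h, and at 6 h Dusp8 was higher by 0.15 ± 0.040 (adjusted p = 0.0184), so that its effect changed sign between 3 h and 6 h (interaction 0.57 ± 0.061, adjusted p = 4.45e-07). In differentiated cells at 3 h it differed by 0.01 ± 0.086 (adjusted p = 0.928). The effects at 3 h differed between stages by 0.42 ± 0.105 (adjusted p = 0.0463), a call that held in 3 of the 16 fits that left out 1 library and in none of those without a myoblast library. In differentiated cells Dusp8 was lower in experiment B28 than in B25 at 1 h and 3 h, whether stretched or not.

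Over the members at 3 h, 0 of 9 were called in myoblasts by edgeR and by DESeq2 (background 0.459% upward and 1.25% downward), while 6 had an unadjusted p under 0.05. The share of all genes at that unadjusted cut is not given. The adjusted p limit was passed by 5 of 9 (Dusp4, Dusp5 and Dusp6 upward, Dusp1 and Dusp8 downward), against 31.9% of 14813 genes. In differentiated cells 1 of 9 was called upward, against 0.890% of 15513 genes, while 3 passed the adjusted p limit upward, against 10.8%, and Dusp16 passed downward (log2 -0.14 ± 0.043, adjusted p = 0.0405), against 11.4%. The median log2 difference was -0.04 in myoblasts and 0.02 in differentiated cells over the members, and -0.0074 and -0.0013 over all genes.

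By 6 h no member was called in either stage with edgeR or DESeq2 (background 1.35% upward and 0.823% downward in myoblasts, 0.518% and 1.52% in differentiated cells), and 6 members in myoblasts and 2 in differentiated cells had an unadjusted p under 0.05. The share of all genes at that unadjusted cut is not given. In myoblasts Dusp4, Dusp7 and Dusp8 were higher and Dusp6 and Dusp14 lower by the adjusted p limit, which 14.1% of 14938 genes passed upward and 13.0% downward. Dusp7 went from 27.8, 27.9, 28.5 and 28.1 CPM to 33.7, 32.1, 33.4 and 29.3 CPM (log2 0.21 ± 0.045, adjusted p = 0.00514). Dusp6, which had risen at 1 h, now stood lower, at 85.3, 90.5, 88.5 and 89.9 CPM against 97.3, 92.9, 102 and 98.5 CPM (log2 -0.12 ± 0.032, adjusted p = 0.0134). Dusp14 fell from a mean of 21.6 to 18.8 CPM (log2 -0.18 ± 0.045, adjusted p = 0.0116). Of the 31-base stretches of Dusp14, 4.22% also occur in Gm18555 or Olfr279, so that part of its counts is uncertain.

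The effects on the 2 cytoplasmic ERK phosphatases changed in opposite directions over time in myoblasts. The effect on Dusp6 fell from 1 h to 3 h (interaction -0.27 ± 0.048, adjusted p = 4.32e-04) and to 6 h (-0.49 ± 0.048 against 1 h, adjusted p = 1.34e-07), while that on Dusp7 rose (0.24 ± 0.072, adjusted p = 0.0313, and 0.37 ± 0.071, adjusted p = 5.70e-04). In differentiated cells the effect on Dusp7 also rose from 1 h to 6 h, by 0.31 ± 0.085 (adjusted p = 0.0188), and without replicate 4 by 0.33 ± 0.088 (adjusted p = 0.0148). The change of Dusp6 over the same interval was -0.41 ± 0.143 (adjusted p = 0.0614), and -0.23 ± 0.080 (adjusted p = 0.0547) without replicate 4. It passed in 3 of 6 other settings, among them the replicate block (-0.25, adjusted p = 0.00715).

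In differentiated cells at 6 h, Dusp4 and Dusp16 were higher by the adjusted p limit, which 11.5% of 15433 genes passed upward. Dusp16, a JNK and p38 phosphatase on chromosome 6 (134715468 to 134792625, minus strand), went from 42.1, 40.6, 38.7 and 41.7 CPM to 50.1, 45.5, 48.3 and 46.2 CPM (log2 0.22 ± 0.041, adjusted p = 0.00440). Its groups did not overlap, where 13.8% of all genes lay wholly higher. It had been lower at 3 h, at 33.8, 37.7, 38.1 and 36.3 CPM against 41.4, 41.9, 38.8 and 39.0 CPM, and the change of its effect from 3 h to 6 h was 0.36 ± 0.063 (adjusted p = 6.79e-04). In myoblasts at 6 h Dusp16 differed by -0.07 ± 0.027 (adjusted p = 0.0595), and the difference between stages was 0.29 ± 0.048 (adjusted p = 0.00314). This stage difference held in every fit that left out 1 library, in contrast to that of Dusp7 at 6 h (-0.25 ± 0.070, adjusted p = 0.0459), which held in 2 of 16.

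**Figure D4:**
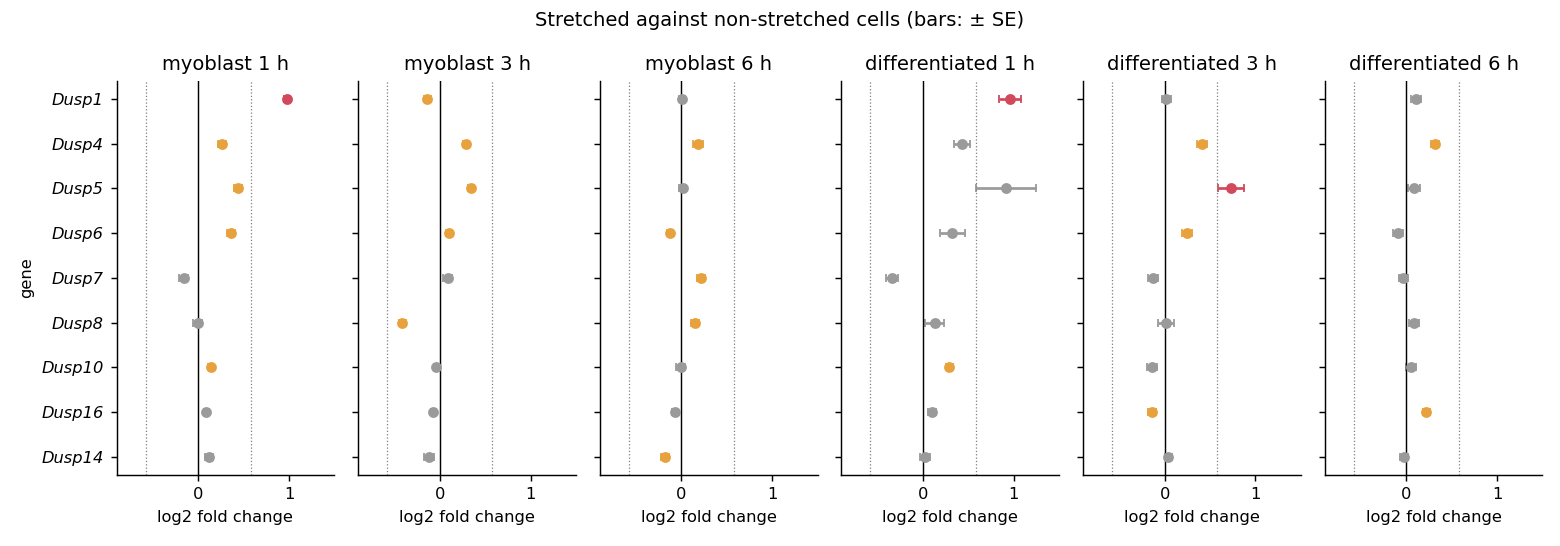
Log2 fold change of stretched against non-stretched cells (horizontal axes, with bars of 1 SE) for the 9 phosphatase genes (vertical axis) in the 6 comparisons, where red marks genes past both limits, orange those past the adjusted p limit only and grey the others, and dotted lines stand at 0.58 and -0.58. Dusp1 lies at 0.98 and 0.96 at 1 h and near 0 later, Dusp5 at 0.73 in differentiated cells at 3 h, and Dusp4 above 0 in all 6 panels.

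In all, the effect of stretching differed between 1 h and 3 h for 7 members in myoblasts, against 10.9% of 15684 genes, and for 3 (Dusp1, Dusp10 and Dusp16) in differentiated cells, against 5.15% of 16266. Between 1 h and 6 h it differed for 6 members in myoblasts (21.1% of genes) and for 3 in differentiated cells (11.9%), and between 3 h and 6 h for 4 (26.5%) and for 1, Dusp16, which went upward as 6.95% of genes did. Without replicate 4 that last count was 3, where 2448 of 16420 genes passed, with Dusp5 (-0.65 ± 0.161, adjusted p = 0.00865) and Dusp6 (-0.33 ± 0.077, adjusted p = 0.00556) added. It was 3 with a replicate block and 4 with the experiment in the model. These tests share the libraries of the comparisons given above. Dusp10 in differentiated cells was not higher at 3 h, at 55.8, 58.4, 55.8 and 55.0 CPM against 64.1, 68.8, 58.6 and 56.8 CPM (interaction -0.44 ± 0.072, adjusted p = 6.91e-04). Between stages, no member differed at 1 h by edgeR or DESeq2 (0 of 16299 genes passed, 2 members had an unadjusted p under 0.05), 1 differed at 3 h (1.79% of genes) and 2 at 6 h (5.18%). The share of all genes at the unadjusted cut is not given. For Dusp1 at 1 h the difference between stages was -0.03 ± 0.141 (adjusted p = 1.00), and without replicate 4 it was -0.20 ± 0.057 (adjusted p = 0.481). Neither passed, which does not show that the effects were alike.

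The typical MAP kinase phosphatases outside the 9 are Dusp2 and Dusp9. Dusp9, a cytoplasmic ERK phosphatase, rose in myoblasts at 1 h from 18.7 ± 0.902 to 22.8 ± 1.37 CPM (log2 0.29 ± 0.050, adjusted p = 0.00598) and at 3 h by 0.30 ± 0.054 (adjusted p = 0.00112), below the fold limit. Neither was called in a stretch comparison by edgeR or DESeq2, and 5 of their 12 tests had an unadjusted p under 0.05. Of 17 atypical dual-specificity phosphatases, 12 were tested and 0 were called by either tool (20 of 72 tests at an unadjusted p under 0.05). The same count of 0 called by both tools was found for 6 other phosphatases of MAP kinases (6 of 23 tests), 13 MAP kinases (31 of 66), 18 RAF and MAP kinase kinase kinases (30 of 108) and 11 kinases activated by MAP kinases (16 of 60). The shares of all genes at the unadjusted cut are not given, so the counts at that cut are not read as a result. Of 7 MAP kinase kinases, Map2k6, an activator of p38, was called down in differentiated cells at 3 h (1.59 ± 0.260 to 0.995 ± 0.184 CPM, log2 -0.67 ± 0.167, adjusted p = 0.0165).

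Genes often read as outputs of ERK, a list chosen with earlier results of these data known, were the pathway list with most calls. Of its 15 genes in myoblasts at 1 h, 3 were called upward, namely Fos (log2 2.16 ± 0.109, adjusted p = 1.51e-06) and Egr1 (1.40 ± 0.035, adjusted p = 2.09e-09), transcription factors of the immediate early response, and Ier3 (0.71 ± 0.104, adjusted p = 0.00228). Over all 14938 genes, 0.254% were called upward. By the adjusted p limit alone 10 of 15 rose, against 1.67% of all genes, and 0 fell. The median over the list was 0.28. In differentiated cells at 1 h 1 gene of the list was called by edgeR and 4 by DESeq2, the former being Fos (5.95 ± 0.674 to 40.3 ± 32.2 CPM, log2 2.76 ± 0.453, adjusted p = 0.0302). Over all 15538 genes, edgeR called 0.0901% upward, and the share by DESeq2 is not given. The median over the list was 0.42. These values include replicate 4, the spread of stretched Fos was wide, and values without that library are not given. Egr1 was called down in myoblasts at 3 h (-0.63 ± 0.052, adjusted p = 4.75e-06). Fosl1 was called up in differentiated cells at 3 h (0.96 ± 0.107, adjusted p = 3.01e-04) and 6 h (0.61 ± 0.055, adjusted p = 1.88e-04).

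The genes whose log2 CPM ran closest to Dusp1 over the 24 myoblast libraries were Fos (Pearson r = 0.969), the kinase gene Sgk1 (0.956) and Spry2 (0.952), which encodes a feedback inhibitor of receptor tyrosine kinase signalling. These values rest largely on the 4 stretched libraries at 1 h: over the other 20 libraries they were 0.223, 0.0138 and 0.734. In differentiated cells the closest were Klf6 (0.949), Snx18 (0.945) and Csrnp1 (0.936), and 0.533, 0.417 and 0.0356 without the 1 h stretched libraries. For Dusp5 in differentiated cells, the thrombin receptor gene F2r (0.953) and Plaur (0.934) were among the closest, and these values were 0.946 and 0.878 without the 1 h stretched libraries. The libraries share experiments and treatment, and the values are given as a description.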

How the data were processed

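RNA of 48 C2C12 libraries was sequenced after stranded mRNA library preparation. The labels give nuclear RNA as the molecule, whereas the methods describe extraction from washed cells. The authors aligned reads to mm10 with STAR, quantified with Salmon and deposited raw whole-number counts per gene symbol, 1 table per stage, without normalization (0 columns were left out here). Salmon divides reads between genes that share sequence, which can move such counts.

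Counts were filtered with filterByExpr, scaled by TMM and tested by quasi-likelihood in edgeR 4.0.16 (R 4.3.3), 8 libraries per comparison, with Benjamini-Hochberg adjustment over all genes. Calls needed an adjusted p under 0.05 and an absolute log2 fold change of at least 0.58. Differences between times used 24 libraries, between stages 16, and non-stretched stages 24. CPM are TMM-scaled over 48 libraries, with a prior count of 1 for log2 values. SE was the log2 change divided by the square root of F. Replicates were not paired. Coordinates and lengths are from GENCODE vM21 (GRCm38).

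The members and gene lists were chosen with earlier results of these data known. Named genes were the 9 members, list genes called in a comparison (at most 4 per list) and the 3 genes most correlated with Dusp1 or a called member (mean counts of 100 or more), of which 1 is not reported here. On counts simulated without an outlying library or an experiment effect, 99 of 100 genes changed by 1 on the log2 scale were called in myoblasts at 1 h. Changes below the fold limit were not simulated. Alternatives were DESeq2 1.42.0, RLE scaling, other filters, an experiment covariate, a replicate block, leaving out each library, 1 model per stage, no fold limit and glmTreat. Splicing data were not analysed here.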

Additional observations from a re-analysis of the deposited data

Results flagged for a closer look

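In 8 of 108 groups of 4 libraries, 1 library stood apart from the other 3 by Dixon's test, where chance flags about 1 in 20. Stretched replicate 4 of the differentiated cells at 1 h was highest for Dusp4 (85.9 CPM) and Dusp5 (47.8 CPM). In myoblasts at 3 h, stretched replicate 7 was lowest for Dusp4 (247 CPM), stretched replicate 9 was highest for Dusp5 (93.3 CPM) and non-stretched replicate 9 was lowest for Dusp7 (25.4 CPM). Non-stretched replicate 9 was lowest for Dusp10 in myoblasts at 1 h (75.1 CPM) and in differentiated cells at 6 h (54.0 CPM), and stretched replicate 10 was lowest for Dusp14 in myoblasts at 6 h (17.4 CPM).

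The effect of stretching differed between times, by an interaction test of edgeR, for these members. In myoblasts, 3 h minus 1 h on the log2 scale was -1.12 for Dusp1, -0.27 for Dusp6, 0.24 for Dusp7, -0.41 for Dusp8, -0.19 for Dusp10, -0.17 for Dusp16 and -0.25 for Dusp14. The 6 h minus 1 h differences were -0.98 for Dusp1, -0.43 for Dusp5, -0.49 for Dusp6, 0.37 for Dusp7, -0.16 for Dusp16 and -0.30 for Dusp14. The 6 h minus 3 h differences were 0.15 for Dusp1, -0.33 for Dusp5, -0.22 for Dusp6 and 0.57 for Dusp8.

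In differentiated cells, 3 h minus 1 h was -0.94 for Dusp1, -0.44 for Dusp10 and -0.24 for Dusp16. The 6 h minus 1 h differences were -0.85 for Dusp1, 0.31 for Dusp7 and -0.24 for Dusp10, and that of 6 h minus 3 h was 0.36 for Dusp16. Between stages (differentiated minus myoblast), the effects differed by 0.42 for Dusp8 at 3 h and, at 6 h, by -0.25 for Dusp7 and 0.29 for Dusp16.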

How the results depend on the processing

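No value of a called member changed sign under any alternative. Without the fold limit, 5, 5 and 5 members passed in myoblasts after 1, 3 and 6 h of stretching, where 5.92%, 31.9% and 27.2% of all genes did. In differentiated cells 2, 4 and 2 members passed, where 0.663%, 22.2% and 22.3% of all genes did. Tested against a log2 fold change of 0.58 itself, 0 passed at 1 h and 0 at 3 h among differentiated cells. With all 24 libraries of a stage in 1 model, 2 were called in differentiated cells at 1 h, Dusp5 being added (adjusted p = 0.0370). With the experiment as a covariate, in differentiated cells 5 members differed for 6 h minus 1 h and 4 for 6 h minus 3 h, and 2 between stages at 3 h. The shares of all genes under that covariate are not given here. At 6 h 1 member differed between stages with that covariate, 1 with RLE scaling and 1 without a filter, Dusp7 being lost. With RLE scaling 0 differed between stages at 3 h (Dusp8, adjusted p = 0.0511). No scaling moved the median of all genes by more than 0.0225 on the log2 scale.

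Leaving out 1 library at a time gave 1 to 1 called members in myoblasts at 1 h, 0 to 0 at 3 h and 0 to 0 at 6 h, and 0 to 1, 1 to 1 and 0 to 0 in differentiated cells, where the 0 at 1 h came without any 1 of the non-stretched replicates 7, 8, 9 and 10. Between stages it gave 0 to 0, 0 to 1 and 1 to 2 at the 3 times. Between times it gave 4 to 7 (3 h minus 1 h), 6 to 8 (6 h minus 1 h) and 3 to 4 (6 h minus 3 h) in myoblasts, the 4 without stretched replicate 10 at 3 h, and 2 to 3, 2 to 4 and 1 to 3 in differentiated cells. The last count was 3 without stretched replicate 4 at 1 h and 2 without non-stretched replicate 10 at 3 h.

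Same-numbered libraries did not deviate together throughout (correlation over 0.1 in 6 of 23 pairs, range -0.0450 to 0.152), so they were not paired. This check covers replicate numbers over all genes and not the experiment, which was left out of the main model and entered only as an alternative. With a replicate block, in which stretched replicate 4 and non-stretched replicate 10 at 1 h no longer contribute to the differentiated comparison at that time, 3 members differed between 3 h and 6 h in differentiated cells in place of 1, Dusp6 was added between 1 h and 6 h (-0.25, adjusted p = 0.00715), and no other count of members changed.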
